A study of Mus musculus with 3 samples.

Results

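The 3 sestrin genes of the mouse, Sesn1, Sesn2 and Sesn3, were followed across the cell classes of jaw tissue without and after irradiation. They were 3 of the 31253 genes in the deposited count files, found by symbol, each with a single Ensembl identifier. They were chosen by their measured 7d over Ctrl ratios in mesenchymal cells, where Sesn1 stood higher and Sesn2 lower, so their values in that contrast are a description and support nothing. The groups were Ctrl, 1d and 7d, each a single library in which the jaw cells of 8 male C57BL/6 wild-type mice aged 10 weeks had been joined. Ctrl mice were not irradiated, and 1d and 7d mice received 10 Gy to the head and neck and were killed 1 or 7 days later. The joined tissue was cut up, dissociated with collagenase II, and the cells were cryopreserved and thawed before capture on a 10x Genomics Chromium instrument, so every group held the cells that survive those steps. With 1 library per group, no value has a replicate and groups could not be tested against each other, and every interval below is a 95% interval of counting error only.

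Sestrins are cytoplasmic proteins made in response to stress. They bind the GATOR2 complex, which frees GATOR1 to switch off the Rag GTPases and so restrains mTORC1, the kinase that couples amino acids to protein synthesis and growth. In human cells SESN2 also binds leucine, which breaks its hold on GATOR2. Sestrins have further been tied to AMPK signalling, to autophagy and to the repair of peroxiredoxins. The genes differ in what induces them: Sesn1 is a known target of p53 and FoxO factors, Sesn2 of p53, ATF4 and NRF2, and Sesn3 of FoxO factors.

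On build GRCm38, the assembly also named mm10, Sesn1 (ENSMUSG00000038332) lies at chr10:41809935-41908424 on the plus strand and has 3 annotated transcripts, 2 of them coding. Sesn2 (ENSMUSG00000028893) lies at chr4:132492032-132510501 on the minus strand with 1 transcript. Sesn3 (ENSMUSG00000032009) lies at chr9:14275067-14333101 on the plus strand with 7 transcripts, 3 of them coding. Counts from 3′ ends were given per gene and do not tell these transcripts apart. Sesn2 shares 6089 bases with the gene model Gm12981 on the same strand, so reads there could be credited to either gene. Gm12981 held 47, 61 and 43 UMIs (unique molecular identifiers) over all barcodes of Ctrl, 1d and 7d, beside 2467, 1574 and 1665 of Sesn2, and the Sesn2 counts are uncertain in that respect.

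The promoters are shown because the 3 genes differ in their known inducers. Each is 300 bases from RefSeq on GRCm38.p6, from 250 bases before the start site to 50 after it, read on the gene's own strand, with motif matches in capitals. Sesn1 has 2 windows, for an upstream and a downstream start, at chr10:41810324-41810623 and chr10:41887189-41887488. The downstream window covers the start of coding transcript Sesn1-201 (chr10:41887439). Coding transcript Sesn1-202 starts upstream of both windows, at chr10:41809935, and that start was not searched. The windows of Sesn2 and Sesn3 are chr4:132510407-132510706 and chr9:14276051-14276350. The Sesn3 window covers the start of coding transcript Sesn3-204 (chr9:14276301). Coding transcripts Sesn3-207 and Sesn3-201 start upstream of it, at chr9:14275067 and chr9:14275083, and those starts were not searched.
Sesn1, upstream start: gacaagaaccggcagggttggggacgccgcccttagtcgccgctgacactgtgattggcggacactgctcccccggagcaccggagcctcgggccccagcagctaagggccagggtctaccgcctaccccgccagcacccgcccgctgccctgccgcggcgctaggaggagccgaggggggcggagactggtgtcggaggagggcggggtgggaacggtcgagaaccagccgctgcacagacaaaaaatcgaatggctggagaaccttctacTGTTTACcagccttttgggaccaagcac
Sesn1, downstream start: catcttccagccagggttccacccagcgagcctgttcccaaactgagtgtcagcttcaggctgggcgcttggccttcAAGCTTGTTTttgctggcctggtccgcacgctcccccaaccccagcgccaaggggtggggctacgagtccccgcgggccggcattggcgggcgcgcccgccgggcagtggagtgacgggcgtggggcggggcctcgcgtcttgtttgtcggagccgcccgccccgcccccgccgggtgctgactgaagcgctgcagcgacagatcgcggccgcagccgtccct
Sesn2: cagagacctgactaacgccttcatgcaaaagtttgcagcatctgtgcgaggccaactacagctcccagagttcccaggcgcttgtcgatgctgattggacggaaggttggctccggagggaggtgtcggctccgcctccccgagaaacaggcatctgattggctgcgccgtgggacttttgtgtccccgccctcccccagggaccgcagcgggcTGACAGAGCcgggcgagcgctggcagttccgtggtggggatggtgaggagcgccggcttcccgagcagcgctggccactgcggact
Sesn3: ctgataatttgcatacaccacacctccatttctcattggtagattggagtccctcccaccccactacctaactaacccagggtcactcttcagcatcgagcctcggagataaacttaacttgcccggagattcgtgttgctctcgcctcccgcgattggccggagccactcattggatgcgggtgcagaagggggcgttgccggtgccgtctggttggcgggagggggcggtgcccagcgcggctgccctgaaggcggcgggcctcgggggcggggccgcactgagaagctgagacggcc
Both strands were searched for the antioxidant response element bound by NRF2 (TGACNNNGC), an ATF4 composite element (TGATGNAA), a FoxO element (GTAAACA), a cyclic AMP response element (TGACGTCA) and the p53 decamer motif. The upstream Sesn1 window held a FoxO element on the opposite strand at position 23 from the start site. The downstream Sesn1 window held a p53 decamer motif at position -173, and the Sesn2 window an antioxidant response element at position -36. No match overlapped another, and none of these letters occurred in the Sesn3 window, which leaves out the upstream Sesn3 starts. Such matches are common, so they describe the windows and are not binding sites: of 32851 promoters of that length, 3.65% held the FoxO element, 8.36% the p53 decamer motif and 12.4% the antioxidant response element. All 4 windows were rich in G and C, at 66.7%, 71.0%, 64.7% and 62.7%, beside a median of 52.7% over all promoters.

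The libraries held 11315, 6043 and 7744 barcodes in Ctrl, 1d and 7d, of which 8623, 4879 and 6094 were kept as cells, with a median of 2419, 5022 and 3816 UMIs per cell. The 59 clusters were rebuilt from the counts and 18 classes were named from marker genes, so each class name below stands for "-like" cells. The mesenchymal pool joined clusters of fibroblast, periodontal ligament and tendon, osteoblast, stromal, cartilage, and pericyte and smooth muscle character. It also took in clusters with no class name, led by Ptn, Smoc2 and Bmp2 and by Slc20a2, Cldn10 and Enpp2. It held 642, 224 and 86 cells in Ctrl, 1d and 7d, with a median of 7362, 9759 and 8521 UMIs. Col1a1, the main collagen of bone and ligament, was found in 91.4%, 90.2% and 93.02% of pool cells. Levels of other mesenchymal genes differed between the libraries, in CPM (UMIs of the gene per 1000000 UMIs of the class). Col3a1 was at 2687, 3588 and 15056 CPM, Dcn at 2399, 1998 and 5819 CPM, and Pdgfrb at 113, 140 and 207 CPM. The leukocyte gene Ptprc was at 36.7, 4.55 and 16.9 CPM, Pecam1 of endothelium at 23.9, 34.3 and 30.1 CPM, and Epcam of epithelium at 3.51, 2.07 and 1.204 CPM. RNA of other cells differed between the libraries of the pool. The summed level of 7 neutrophil genes was 2212, 1550 and 172 CPM, that of 4 haemoglobin genes 5127, 1475 and 561 CPM, that of 5 B cell genes 90.9, 101 and 15.7 CPM, that of 5 T cell genes 30.5, 2.90 and 21.7 CPM, and that of 4 myeloid genes 310.1, 90.2 and 61.4 CPM. None of these genes was at 0 in Ctrl, 2 T cell genes were at 0 in 1d, and 1 B cell, 3 T cell and 1 myeloid gene were at 0 in 7d. Their part in the sestrin values was not tested.

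In the mesenchymal pool the 3 genes differed from each other across the libraries. Sesn1 had 75, 45 and 37 UMIs in Ctrl, 1d and 7d, which are 11.96 CPM (9.40 to 14.99), 18.6 CPM (13.6 to 24.9) and 44.5 CPM (31.4 to 61.4). The 7d interval lay above those of both other libraries, while the 1d and Ctrl intervals overlapped. Sesn2 had 965, 211 and 23 UMIs, or 154 CPM (144 to 164), 87.3 CPM (75.9 to 99.9) and 27.7 CPM (17.6 to 41.5). None of its 3 intervals touched another, and the order was Ctrl, then 1d, then 7d. Sesn3 had 968, 454 and 101 UMIs, or 154 CPM (145 to 164), 188 CPM (171 to 206) and 122 CPM (99.02 to 148). Its 1d level lay above both others, and the Ctrl and 7d intervals overlapped at their ends.

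**Figure D1:**
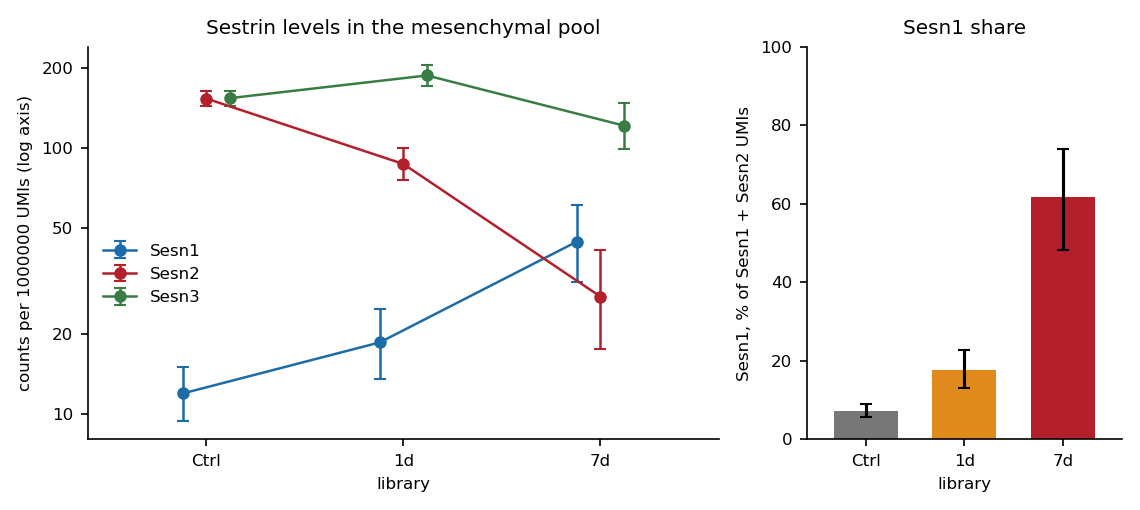
Left, counts per 1000000 UMIs (log axis) of each sestrin gene in the mesenchymal pool of Ctrl, 1d and 7d, with 95% counting intervals and 1 library per point; right, Sesn1 as a percent of Sesn1 plus Sesn2 UMIs (bars from 0, with 95% intervals). Sesn1 is at 11.96, 18.6 and 44.5 CPM and Sesn2 at 154, 87.3 and 27.7 CPM, so Sesn1 makes up 7.21%, 17.6% and 61.7% of their joint UMIs.

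At 7d the ratio over Ctrl in the pool was 3.73 for Sesn1 (2.44 to 5.59), 0.180 for Sesn2 (0.114 to 0.272) and 0.788 for Sesn3 (0.635 to 0.968). These ratios include the values that chose Sesn1 and Sesn2. Of 11656 genes with at least 20 UMIs over both libraries, 17.7% were at least 2-fold higher at 7d and 12.6% at least 2-fold lower, and the median of all genes was 0.26 on the log2 scale. On that scale Sesn1 stood at 1.90, Sesn2 at -2.47 and Sesn3 at -0.34, and 96.5%, 3.19% and 25.8% of genes had a lower ratio. At 1d the ratio over Ctrl was 1.56 for Sesn1 (1.05 to 2.28), 0.567 for Sesn2 (0.486 to 0.659) and 1.22 for Sesn3 (1.09 to 1.36). None of the 3 was past 2-fold at 1d. Of 12006 genes, 4.21% were at least 2-fold higher at 1d and 4.74% at least 2-fold lower, and the median of all genes was 0.10 on the log2 scale. Both contrasts use the same Ctrl library. Between the irradiated libraries, the 7d over 1d ratio was 2.39 for Sesn1 (1.51 to 3.78), 0.317 for Sesn2 (0.197 to 0.489) and 0.647 for Sesn3 (0.517 to 0.805).

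Scaling by TMM factors, which centre the bulk of genes, moved the median of the pool by -0.35 on the log2 scale for 7d over Ctrl and by -0.11 for 1d over Ctrl. With that scaling the 7d over Ctrl ratios were 2.93 for Sesn1, 0.141 for Sesn2 and 0.619 for Sesn3, in the directions given above.

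The share of pool cells with a UMI followed the levels of Sesn1 and Sesn2. At least 1 UMI of Sesn1 was held by 10.3%, 16.5% and 33.7% of pool cells in Ctrl, 1d and 7d. After each cell was thinned to 1000 UMIs and shallower cells were left out, 10 of 627, 2 of 205 and 6 of 86 cells held it, or 1.59%, 0.976% and 6.98%. The thinned Sesn1 ratio of 1d over Ctrl was 0.612, on the other side of 1 from the ratio of all UMIs, and rests on 2 and 10 cells. For Sesn2 the shares were 57.9%, 40.2% and 18.6%, and 14.5%, 7.80% and 2.33% after thinning. For Sesn3 they were 51.9%, 61.2% and 55.8%, and 11.8%, 12.7% and 8.14% after thinning. As a measure of free RNA, Sesn1 was found in 0.912%, 1.23% and 1.84% of neutrophils, at a median of 2680, 5206 and 4606 UMIs per cell. Sesn3 was found in 0 of 89 erythroid cells of 1d, which allows a share of up to 3.37%, and in 1.37% of erythroid cells of 7d, at a median of 3505 and 6083 UMIs. Without thinning, the Sesn1 shares in the pool were above those of neutrophils, and the Sesn3 shares above those of erythroid cells. Pool cells were deeper, at a median of 7362, 9759 and 8521 UMIs. After thinning, the Sesn1 share of the 1d pool (0.976%) was below the neutrophil share of 1d (1.23%), which was not thinned. No such measure was made for Sesn2.

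Cells rich in Sesn2 were found in the Ctrl and 1d pool. At least 5 UMIs of Sesn2 were held by 48, 11 and 0 pool cells of Ctrl, 1d and 7d, and the highest count in 1 cell was 22, 8 and 3. For Sesn3, 65, 32 and 2 cells held at least 5 UMIs, with a highest count of 18, 14 and 6. Sesn1 was thinly spread throughout, with a highest count of 2, 3 and 4 UMIs in 1 cell. Among the pool cells with Sesn1 or Sesn2, cells with both numbered 45, 18 and 7 in Ctrl, 1d and 7d. Cells with Sesn1 and no Sesn2 numbered 21, 19 and 22, and cells with Sesn2 and no Sesn1 numbered 327, 72 and 9. At least 1 UMI of all 3 genes was found in 35, 15 and 6 cells, and no UMI of any in 157, 58 and 23 cells.

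The balance of Sesn1 and Sesn2 does not depend on the total used for scaling. Sesn1 made up 7.21% of the Sesn1 plus Sesn2 UMIs of the Ctrl pool (5.71% to 8.96%), 17.6% in 1d (13.1% to 22.8%) and 61.7% in 7d (48.2% to 73.9%). The 3 intervals did not overlap, and the 7d share again rests on the values that chose the genes. Over all kept cells the share was 14.96%, 25.8% and 32.2%. The place of the UMIs differed too: the pool held 40.6%, 15.03% and 1.55% of all Sesn2 UMIs in kept cells of Ctrl, 1d and 7d, while it was 7.45%, 4.59% and 1.41% of the cells. For Sesn1 the pool held 17.9%, 9.202% and 5.26% of the UMIs, and for Sesn3 32.4%, 33.6% and 4.48%. A level over a whole library therefore mixes the class levels with the class sizes.

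The makeup of the pool differed between libraries, so the genes were also read inside its clusters, each named by its 3 leading genes. The cluster led by Ptn, Smoc2 and Bmp2 had no class name. Its mean marker log2 against other cells was 1.74 for the best mesenchymal class and 1.57 for glia. This cluster was 23.5% of the Ctrl pool, 32.1% of the 1d pool and 2.33% of the 7d pool. In Ctrl it carried the highest Sesn2 level among the 8 clusters plotted, 261 CPM (393 UMIs). In 1d its level was 108 CPM (65 UMIs), with higher levels in the clusters led by Mmp3 (184 CPM, 20 UMIs) and by Enpp2, Tcim and Nes (157 CPM, 73 UMIs), and its 2 cells in 7d held 0 Sesn2 UMIs. The 1d over Ctrl ratio inside it was 0.415 for Sesn2 (0.314 to 0.541), 0.744 for Sesn1 (0.292 to 1.68) and 0.887 for Sesn3 (0.730 to 1.07). Sesn2 was lower at 1d inside the cluster, and the intervals of both other genes held 1. The mix of cells within the cluster may also differ between the libraries, and its part was not tested.

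The cluster led by Postn, Tnn and Aspn, of periodontal ligament and tendon character, was the one best filled in all libraries, with 69, 29 and 27 cells in Ctrl, 1d and 7d. Sesn1 there was at 24.2, 29.4 and 41.1 CPM (14, 8 and 11 UMIs) and Sesn2 at 69.0, 51.4 and 18.7 CPM (40, 14 and 5 UMIs). The 7d over Ctrl ratio inside it was 0.270 for Sesn2 (0.0833 to 0.685), 1.70 for Sesn1 (0.698 to 4.03) and 0.645 for Sesn3 (0.352 to 1.13). Sesn2 was lower there beyond its counting interval, while the intervals of Sesn1 and Sesn3 held 1. Of 4 clusters with at least 10 cells in both libraries, Sesn2 was lower at 7d in 4, Sesn1 higher in 4 and Sesn3 lower in 1. Those clusters, led by Postn, Mmp3, Apod and Slc20a2, were only 10.75%, 11.84%, 11.06% and 2.96% of the Ctrl pool cells. With the cluster mix of 7d set to that of Ctrl over those clusters, the 7d over Ctrl ratios were 3.10 for Sesn1, 0.226 for Sesn2 and 1.16 for Sesn3. The Sesn3 ratio was thus on the other side of 1 from the pooled 0.788, as it was with pool clusters of under 10 cells in any library left out (1.52).

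Other clusters showed where the remaining UMIs lay. In the cluster led by Apod, Mfap5 and Has1, Sesn1 had 8 UMIs in the 10 cells of 7d and 2 UMIs in the 71 cells of Ctrl, or 107 and 6.54 CPM, and Sesn2 had 1 and 34 UMIs. Of those 8 Sesn1 UMIs of 7d, 4 lay in 1 cell, and the cluster also enters the ratios at the Ctrl mix above. In the fibroblast-like cluster led by Mmp3, Mfap4 and Angptl1, Sesn2 was at 148, 184 and 33.1 CPM in Ctrl, 1d and 7d (70, 20 and 3 UMIs). It was the 1 cluster of 7 with at least 10 cells in 1d and Ctrl in which Sesn2 was not lower at 1d. In the cluster led by Slc20a2, Cldn10 and Enpp2, which was 25.6% of the 7d pool and 2.96% of the Ctrl pool, Sesn1 was at 54.6 CPM in 7d and 12.6 CPM in Ctrl, but on 10 and 1 UMIs. Sesn3 was at 202, 238 and 256.5 CPM there in Ctrl, 1d and 7d. The cluster of osteoblast genes led by Bglap, Bglap2 and Col11a2 had Sesn1 at 11.1 CPM, Sesn2 at 52.8 CPM and Sesn3 at 33.2 CPM in its 37 Ctrl cells, so Sesn2 and Sesn3 lay below the level of the whole Ctrl pool and Sesn1 close to it. It had no cell in 7d.

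**Figure D2:**
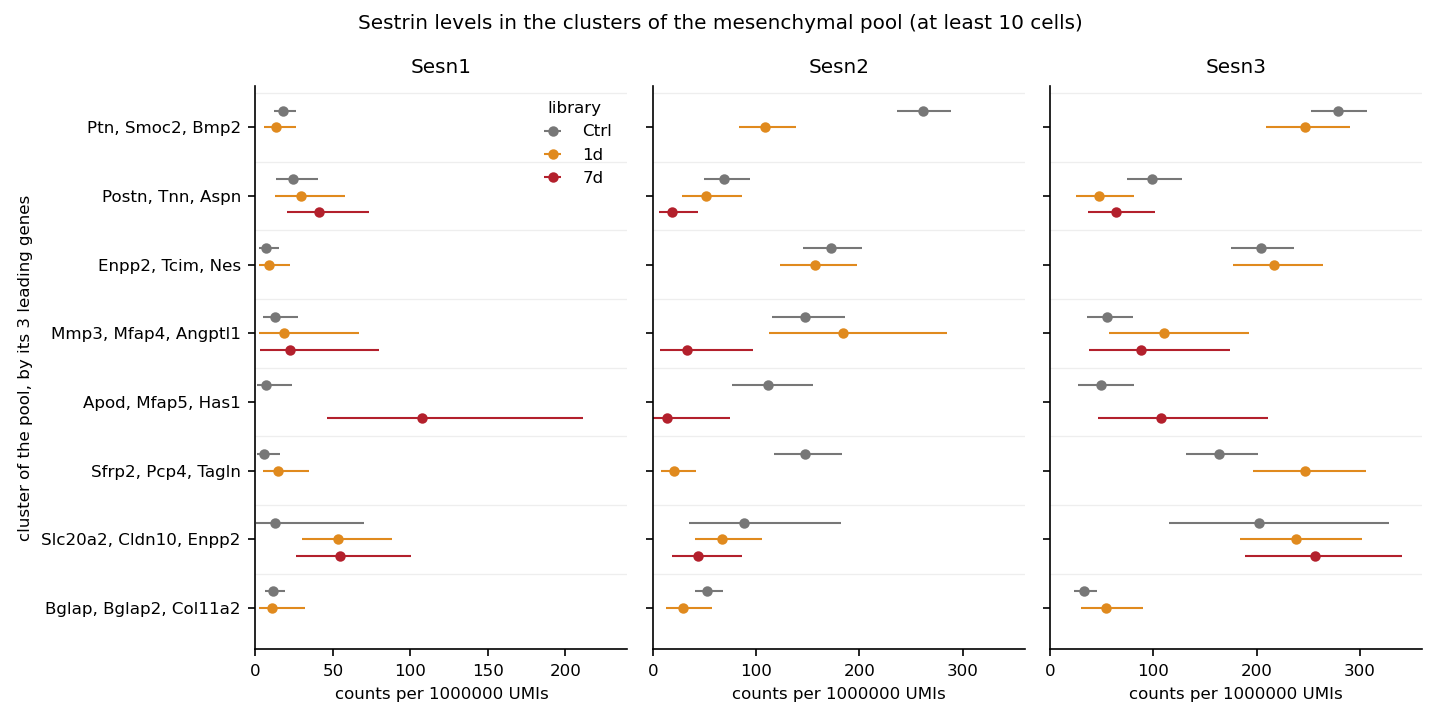
Counts per 1000000 UMIs (linear axis) of each sestrin gene in 8 clusters of the mesenchymal pool, with 95% counting intervals and 1 library per point. The clusters shown are those with at least 10 cells in at least 2 libraries. Sesn2 is highest in the Ctrl cells led by Ptn, Smoc2 and Bmp2 (261 CPM), and in the cells led by Postn, Tnn and Aspn it is at 69.0, 51.4 and 18.7 CPM in Ctrl, 1d and 7d.

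Across the classes with at least 30 cells, the genes had different homes. Sesn1 levels were mostly highest in lymphoid, erythroid and progenitor cells. In Ctrl it was highest in NK and innate lymphoid cells (33.8 CPM), mature B cells (27.0 CPM) and T cells (21.8 CPM) and lowest in neutrophils (1.88 CPM). In 1d the order was led by haematopoietic stem and progenitor cells (49.5 CPM), NK and innate lymphoid cells (43.0 CPM), erythroid cells (38.3 CPM) and small pre-B and immature B cells (37.7 CPM), with neutrophils last (2.30 CPM). In 7d erythroid cells (45.9 CPM), mature B cells (44.7 CPM) and the mesenchymal pool (44.5 CPM) led and monocytes were last (2.34 CPM). Every pair of neighbours in these orders overlapped in their intervals.

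Sesn2 was highest in structural cells of Ctrl: endothelial cells (187 CPM; 138 to 248) and the mesenchymal pool (154 CPM), which overlapped, and then epithelial cells (76.6 CPM), which did not overlap with the pool. T cells were lowest, at 20.7 CPM. In 1d the pool led at 87.3 CPM without overlap with monocytes (55.3 CPM), and pro-B and large pre-B cells (9.69 CPM) and small pre-B and immature B cells (9.87 CPM) were lowest. In 7d neutrophils (72.2 CPM), haematopoietic stem and progenitor cells (69.7 CPM) and mast cells and basophils (63.0 CPM) led, no neighbours were apart, and the pool was in place 11 of 15. Mature B cells were lowest at 17.5 CPM.

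Sesn3 levels spread furthest over the classes. In Ctrl regulatory T cells led at 354.5 CPM, apart from T cells (224 CPM), and gamma delta T cells (155 CPM), the pool (154 CPM) and NK and innate lymphoid cells (149.9 CPM) followed. Epithelial cells (106 CPM) and mature B cells (104 CPM) came next and stood apart from the class named plasmacytoid dendritic cells (39.8 CPM). That class was mixed: 27 of its 49 Ctrl cells lay in a cluster led by Acp5, Ccl22 and Upb1, without Siglech among its leading genes. This cluster held 12 of the 18 Sesn3 UMIs of the class in Ctrl. Neutrophil precursors were lowest at 1.32 CPM. In 1d T cells (219 CPM) and the pool (188 CPM) led, and in 7d regulatory T cells (245 CPM), apart from T cells (178 CPM). Lymphoid and mesenchymal cells were thus high and myeloid cells low: macrophages were at 14.8, 15.2 and 14.95 CPM and monocytes at 5.35, 10.7 and 9.37 CPM in Ctrl, 1d and 7d. Erythroid cells held 0 UMIs of Sesn3 in 1d, with an upper bound of 7.06 CPM, and 2.03 CPM in 7d, where the same class led for Sesn1.

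**Figure D3:**
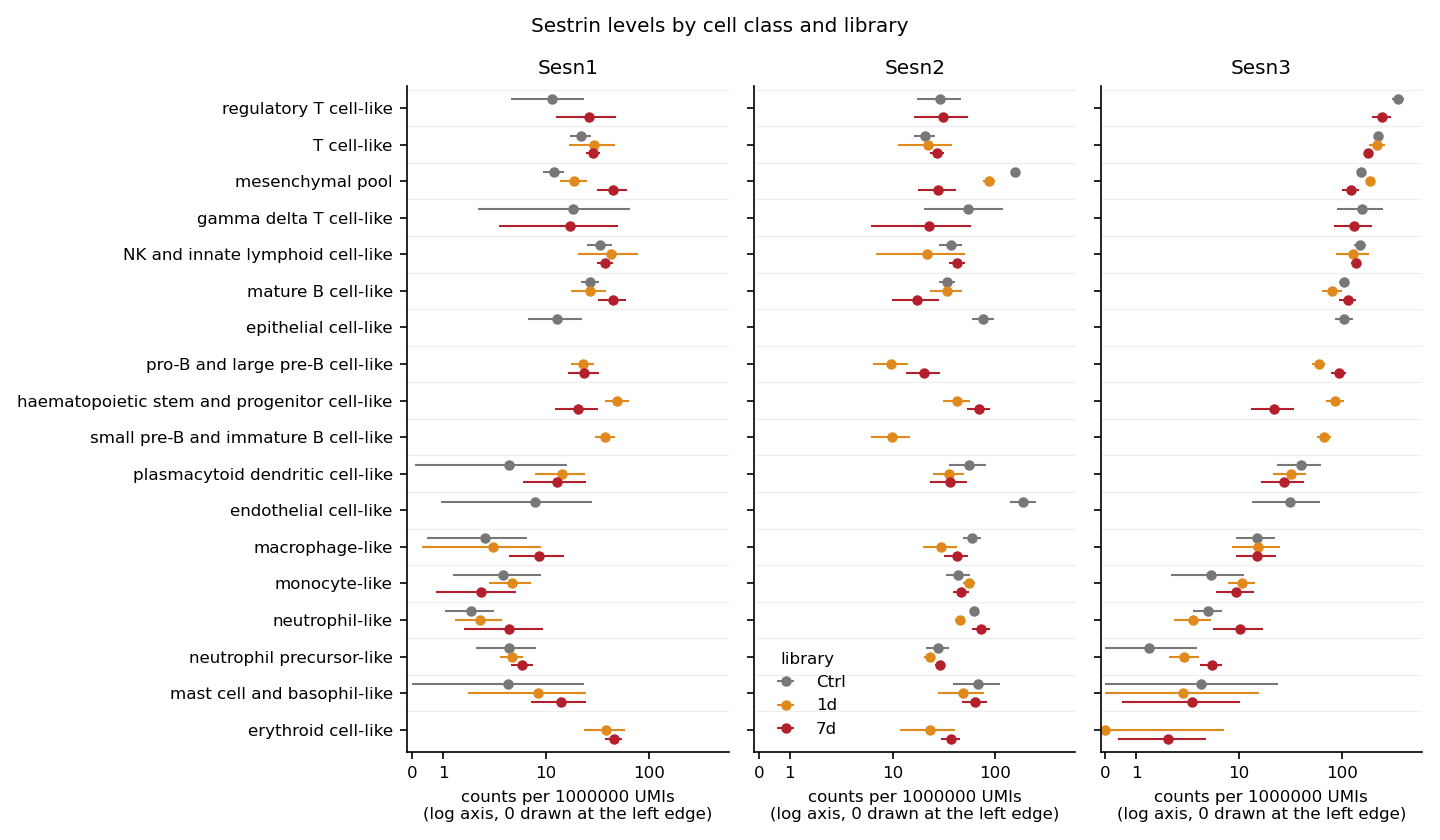
Counts per 1000000 UMIs (log axis, 0 at the left edge) of each sestrin gene in every class with at least 30 cells, for Ctrl, 1d and 7d, with 95% counting intervals and classes ordered by their highest Sesn3 level. Sesn3 spans 354.5 CPM in Ctrl regulatory T cells to 0 in 1d erythroid cells, while the Sesn2 levels of most blood cell classes lie between those of pro-B cells of 1d (9.69 CPM) and neutrophils of 7d (72.2 CPM).

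The share of Sesn1 in the Sesn1 plus Sesn2 UMIs also set the classes apart. It was 51.3%, 57.1% and 51.5% in T cells of Ctrl, 1d and 7d, and 2.95%, 4.805% and 5.66% in neutrophils. Lymphoid precursors were on the Sesn1 side, at 79.2% in small pre-B and immature B cells of 1d and 70.2% in pro-B and large pre-B cells of 1d, against 54.0% in those of 7d. In mature B cells it was 44.4% in Ctrl, 44.3% in 1d and 71.9% in 7d (58.5% to 83.0%).

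Ratios between libraries were then set side by side for the classes in which both libraries had at least 30 cells and the gene at least 20 UMIs. For 7d over Ctrl, Sesn1 was above 1 in 6 of 6 classes, with a median ratio of 1.501. The pool is among the classes counted for this contrast. Its values chose Sesn1 and Sesn2, so its part in these counts supports nothing. The share of all genes above 1 is not given beside them. Of the 6 classes, neutrophil precursors (1.35) were at 0.213 with thinned cells and stayed on the same side of 1 in 10 of 12 alternatives. The interval lay above 1 in 3: the pool, mature B cells and T cells (1.32; 1.01 to 1.75). It was at least 2-fold higher in 2, the pool and neutrophils (2.30; 0.732 to 6.28, on 6 and 15 UMIs), and at least 2-fold lower in 0. Over all gene and class pairs of that contrast, 10.7% were at least 2-fold higher and 9.36% at least 2-fold lower. Sesn2 was past 2-fold in 1 of 11 classes, the pool, where it was lower. It was above 1 in 6 and below 1 in 5, with the interval below 1 in the pool, mature B cells and macrophages (0.703; 0.499 to 0.985). Sesn3 was past 2-fold in 2 of 11, both of them low-level myeloid classes in which it was higher. These were neutrophils (2.02; 1.01 to 3.78, on 14 and 40 UMIs) and neutrophil precursors (4.11; 1.35 to 20.4, on 66 and 3 UMIs). The neutrophil ratio lay below 1 with finer clusters (0.416 at Leiden resolution 2) and with clusters drawn without the sestrins and listed genes (0.570).

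For 1d over Ctrl, 6.79% of all gene and class pairs were at least 2-fold higher and 6.36% at least 2-fold lower. Sesn1 was past 2-fold in 0 of 7 classes and above 1 in 6, with a median ratio of 1.22. The myeloid ratios among them crossed 1 under alternatives, to 0.340 in monocytes, 0.311 in neutrophils and 0.682 in neutrophil precursors. Sesn2 was at least 2-fold lower in 1 of 10, macrophages (0.491; 0.312 to 0.753, on 29 and 93 UMIs), and below 1 in 8, with a median ratio of 0.720. The macrophage ratio was 0.461 to 0.883 over 12 alternatives, highest with thinned cells, and so not past 2-fold in all of them. In neutrophils the Sesn2 ratio was 0.736 (0.637 to 0.849). Sesn3 was at least 2-fold higher in 2 of 9, monocytes (2.004 on 44 and 7 UMIs) and neutrophil precursors (2.23; 0.708 to 11.3, on 38 and 3 UMIs). The monocyte ratio was 0.913 with no cell filter, and that of the precursors 0.774 and 0.680 under the same 2 other clusterings.

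For 7d over 1d, 6.87% of all gene and class pairs were at least 2-fold higher and 8.69% at least 2-fold lower. Each gene had 1 class at least 2-fold higher and 1 at least 2-fold lower, of 11 classes for Sesn1, 13 for Sesn2 and 11 for Sesn3. For Sesn1 (higher) and Sesn2 (lower) these include the pool, whose 7d values chose both genes. Apart from the pool, Sesn1 was at least 2-fold lower in haematopoietic stem and progenitor cells (0.415; 0.229 to 0.719). Sesn3 was also lower there (0.252; 0.145 to 0.416), and Sesn2 was higher within 2-fold (1.65; 1.11 to 2.48). The Sesn3 ratio of these cells stayed below 1 over 12 alternatives. It was 0.873 at its highest, and so not past 2-fold in all of them. In pro-B and large pre-B cells Sesn2 (2.09; 1.197 to 3.64, on 29 and 28 UMIs) and Sesn3 (1.56; 1.23 to 1.96) were higher at 7d. In neutrophils Sesn3 (2.81; 1.35 to 5.62) and Sesn2 (1.58; 1.25 to 1.99) were higher at 7d than at 1d. That Sesn3 ratio was 0.472 at Leiden resolution 2 and 0.732 with clusters drawn without the sestrins and listed genes. Of the 14 Sesn3 UMIs of 7d neutrophils, 0 lay in the cluster led by Retnlg and Cxcr2, which had 3.94 CPM in 1d.

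**Figure D4:**
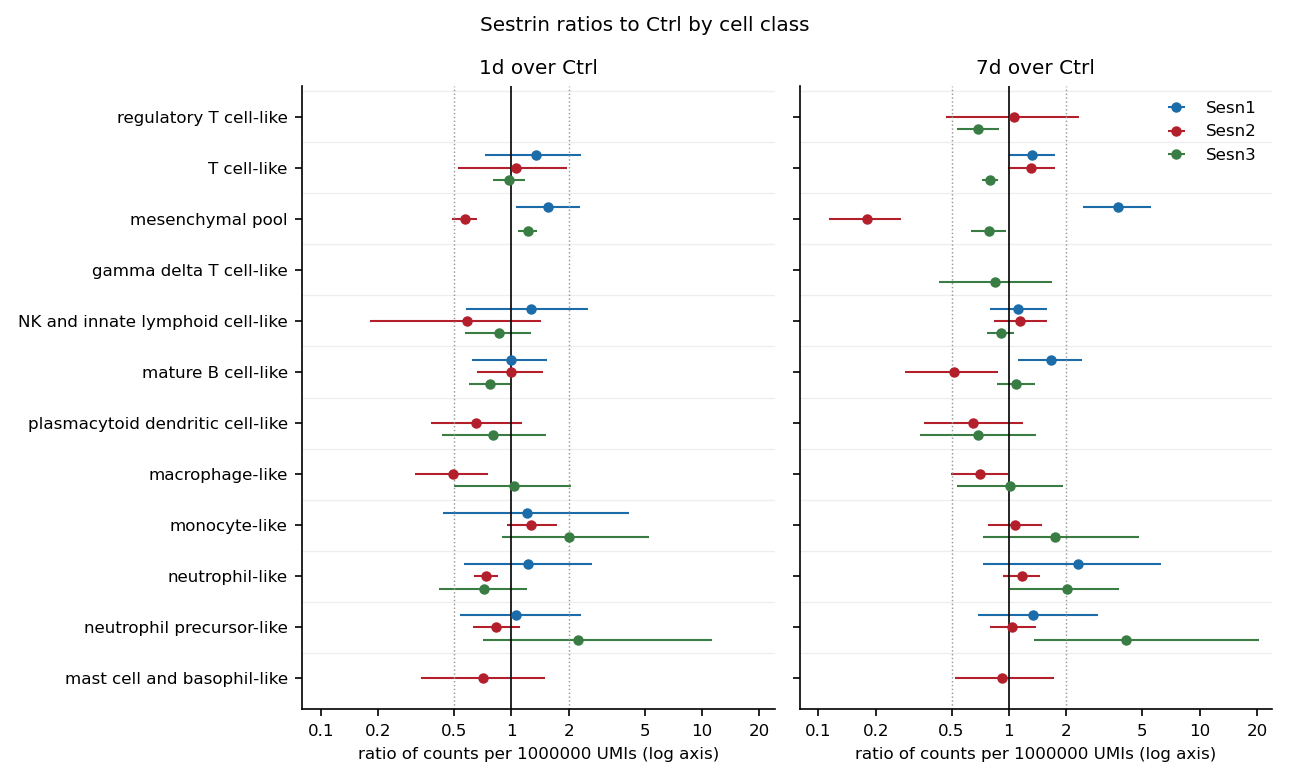
Ratio of counts per 1000000 UMIs over Ctrl (log axis) of each sestrin gene at 7d and at 1d, with 95% counting intervals, in classes where both libraries had at least 30 cells and the gene at least 20 UMIs, with dotted lines at 0.5 and 2. Both contrasts share the Ctrl library; at 7d the mesenchymal pool (3.73 for Sesn1, 0.180 for Sesn2) and mature B cells (1.66 and 0.516) have both intervals off 1, on opposite sides.

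Mature B cells at 7d had more Sesn1 and less Sesn2 per UMI than in Ctrl, in cells that the choice of genes did not use but against the same Ctrl library as the pool. Sesn1 was at 44.7 CPM in 7d (41 UMIs in 457 cells) and 27.0 CPM in Ctrl (95 UMIs in 1728 cells), a ratio of 1.66 (1.12 to 2.41). Sesn2 was at 17.5 CPM in 7d (16 UMIs) and 33.8 CPM in Ctrl (119 UMIs), a ratio of 0.516 (0.286 to 0.873). Sesn3 was at 113 and 104 CPM, a ratio of 1.09 (0.871 to 1.36). Inside the larger mature B cluster, led by Scd1, H2-DMb2 and Bank1, with 373 cells in 7d and 1555 in Ctrl, the ratio was 1.73 for Sesn1 (1.09 to 2.69) and 0.570 for Sesn2 (0.309 to 0.981). The smaller mature B cluster, led by Fcer2a, Hspa1a and Hspa1b, had 84 cells in 7d and 173 in Ctrl. Sesn1 there was at 64.96 CPM in 7d (11 UMIs), close to the 60.12 CPM of Ctrl (22 UMIs). Sesn2 had 1 UMI there in 7d and 8 in Ctrl. At 1d the mature B ratios over Ctrl were 0.988 for Sesn1, 0.994 for Sesn2 and 0.772 for Sesn3 (0.599 to 0.984).

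The endothelial class had under 30 cells in 7d, 24 against 54 in Ctrl, so it is outside the counts above. Sesn1 had 10 UMIs in 7d and 2 in Ctrl (84.6 and 7.80 CPM; ratio 10.8, 2.31 to 102), and Sesn2 had 4 and 48 UMIs (33.8 and 187 CPM; ratio 0.181, 0.0473 to 0.494). The epithelial class had 21 cells in 1d and 61 in Ctrl, with 17 and 12 UMIs of Sesn1 (ratio 3.97; 1.79 to 9.12). The Sesn2 ratio there was 0.592 and the Sesn3 ratio 0.515. In small pre-B and immature B cells, with 26 cells in 7d and 894 in 1d, Sesn2 was higher at 7d (8.23; 2.06 to 24.2, on 4 and 22 UMIs), Sesn1 was at 1.62 (0.327 to 4.89) and Sesn3 at 0.302 (0.00759 to 1.71). In regulatory T cells, with 24 cells in 1d, every sestrin interval against Ctrl or 7d held 1.

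In T cells Sesn3 was lower at 7d than in Ctrl (0.795; 0.725 to 0.872), as it was in regulatory T cells (0.690; 0.536 to 0.883, on 94 and 218 UMIs). Different clusters held many of the T cells of each library. A cluster led by Elovl6 had 12 cells in 7d and 363 in Ctrl, where Sesn3 was at 286 CPM, and a cluster led by Inpp4b, Lef1 and Cd8b1 had 436 cells in 7d, where Sesn3 was at 193 CPM, and 17 in Ctrl. Inside the shared cluster led by Ikzf2, Trac and Cd3d, with 1085 cells in 7d and 516 in Ctrl, the Sesn3 ratio was 0.868 (0.767 to 0.985). Its cells may still differ between the libraries, which was not tested. At Leiden resolution 2, a cluster led by Xcl1, Klra1 and Klra6 had 388 cells in 7d and 6 in Ctrl. One led by Ikzf2, Trdc and Camk4 had 8 in 7d and 163 in Ctrl. The myeloid classes were mixed in the same way. A mature neutrophil cluster led by Retnlg and Cxcr2 held 1266, 305 and 73 neutrophils of Ctrl, 1d and 7d, and a cluster led by Ltf and Krt81 held 328, 830 and 196. An unnamed cluster led by Il1rn, Wfdc17 and Lsmem1, nearest to granulocyte markers, held 1346, 106 and 81 cells. It is outside the neutrophil class, so the neutrophil levels and ratios leave out these cells, most of them of Ctrl. Inside the Ltf-led cluster the 7d over Ctrl ratio was 1.79 for Sesn3 (0.868 to 3.54) and 1.41 for Sesn2 (1.06 to 1.85).

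The genes whose levels ran most like each sestrin were ranked by Pearson's r of log2(CPM + 10) over 38 units, a unit being a class of at least 50 cells in 1 library. The units share 3 libraries, and classes differ in depth, so r is a description. Among 9803 genes, Sesn1 was most like Dcaf8 (0.85), a substrate receptor of the CUL4 ubiquitin ligase, Josd1 (0.85), Tdp2 (0.80), an enzyme that repairs topoisomerase-linked breaks, Atm (0.79), the DNA damage kinase, and Numa1 (0.79). Sesn2 was most like Noct (0.80), Fosl1 (0.74), an AP-1 factor, Ptpn12 (0.73), Pdlim7 (0.73) and Lsmem1 (0.73). Sesn3 was most like Cers4 (0.93), a ceramide synthase, Rasa1 (0.91), a Ras GTPase-activating protein, Tshz1 (0.90), Bcl9l (0.89) and Agpat3 (0.88). Noct was at 159.7, 204 and 24.1 CPM in the pool of Ctrl, 1d and 7d, so it shared the low 7d level of Sesn2 and not its lower 1d level. Among the sestrins themselves, r was -0.40 for Sesn1 with Sesn2, 0.57 for Sesn1 with Sesn3 and -0.15 for Sesn2 with Sesn3.

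Regulators of the sestrins were read in the pool next, by lists of known genes. The shares of all pool genes to set beside every list count are 17.7% at least 2-fold higher and 12.6% lower at 7d, and 4.21% and 4.74% at 1d. Trp53, the gene of p53, had a ratio over Ctrl of 0.529 at 7d (0.386 to 0.709) and 1.19 at 1d (1.04 to 1.36). Of 30 other p53 targets with at least 20 UMIs, 2 were at least 2-fold higher and 8 at least 2-fold lower at 7d, and of 31 at 1d, 1 and 14. The list median was -0.42 at 7d and -0.86 at 1d on the log2 scale, beside 0.26 and 0.10 for all genes. Ddb2, which recognises UV damage, was higher at 7d (3.46; 1.53 to 7.34) and at 1d (2.27; 1.202 to 4.26), and Ddit4, another inhibitor of mTORC1, was higher at 7d (2.14; 1.69 to 2.69). Mdm2, the ubiquitin ligase of p53, was at 0.207 of Ctrl at 7d and 0.231 at 1d, Cdkn1a, the p21 cell cycle inhibitor, at 0.522 and 0.417, and the death receptor Fas at 0.168 at 7d. Eda2r had 3 UMIs in the 1d pool and 261 in the Ctrl pool. More of these targets were lower than higher in either contrast, which share the Ctrl library.

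Atf4 itself had a ratio of 0.416 at 7d (0.368 to 0.467) and 0.933 at 1d. Of 30 ATF4 and amino acid stress genes, 3 were at least 2-fold higher and 14 lower at 7d (median -0.89), and 2 and 1 at 1d (median -0.18). The cystine carrier Slc7a11 had 3 UMIs in the 7d pool and 469 in the Ctrl pool, and the arginine carrier Slc7a1 18 and 789. Nfe2l2, the gene of NRF2, had a ratio of 0.411 at 7d (0.322 to 0.518) and 0.791 at 1d. Of 20 genes of the NRF2 list, 0 were at least 2-fold higher and 11 lower at 7d (median -1.26), and 0 and 1 at 1d (median -0.17). Hmox1, which breaks down haem, had 76 UMIs in the 7d pool and 6180 in the Ctrl pool, and Srxn1, the sulfiredoxin that reduces peroxiredoxins, 24 and 1721 (0.105; 0.0673 to 0.157). The medians of both lists lay below that of all genes at 7d.

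Of the FoxO genes, Foxo3 had a ratio of 1.41 at 7d (1.11 to 1.77) and 0.9695 at 1d, and Foxo1 0.573 and 1.09. Of 20 FoxO factors and targets, 3 were at least 2-fold higher and 4 lower at 7d (median -0.42), and of 21 at 1d, 0 and 3 (median 0.06). The 7d counts are near the shares of all genes, 17.7% higher and 12.6% lower. Tsc22d3, which is also induced by glucocorticoids, was higher at 7d (9.89; 8.86 to 11.1), as was the mitophagy receptor Bnip3 (2.98). Ccr7, a homing receptor of lymphocytes and dendritic cells, had 107 UMIs in the Ctrl pool, 3 in the 1d pool and 1 in the 7d pool. Of 12 glucocorticoid-responsive genes, 4 were at least 2-fold higher and 2 lower at 7d, and 2 and 0 at 1d, with Zbtb16 at 7.55 at 7d. Of 16 genes of the dissociation and immediate early list, 1 was at least 2-fold higher and 5 lower at 7d (median -0.55), and 1 and 0 at 1d (median 0.27). Fos was at 2.47 at 7d while the heat shock gene Hsph1 was at 0.215. The part of digestion and handling in the sestrin values was not tested.

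Next came the complexes between sestrins and mTORC1, small lists read against 17.7% of all genes at least 2-fold higher and 12.6% lower at 7d. Of the 5 GATOR2 genes, whose complex sestrins bind, 0 passed 2-fold in either direction at 7d or 1d, with ratios at 7d of 1.26 for Mios, 1.68 for Wdr24, 0.770 for Wdr59, 1.26 for Seh1l and 0.976 for Sec13. Of the 3 GATOR1 genes 2 were at least 2-fold higher at 7d, Nprl3 (2.95; 1.203 to 6.63, on 9 and 23 UMIs) and Nprl2 (2.64; 0.944 to 6.51, on 7 and 20 UMIs), and 1 at 1d, Nprl3 (2.03; 1.03 to 3.93). Of 7 KICSTOR and other sensor genes 1 was at least 2-fold higher at 7d, Castor2 (3.25, with an interval of 1.95 to 5.29), and 0 at 1d. Of 12 Rag and Ragulator genes 1 was higher and 1 lower at 7d: Slc38a9, the lysosomal arginine sensor (2.92; 1.37 to 5.85), and Rragd (1 UMI in 7d and 95 in Ctrl). At 1d Slc38a9 was at 2.09 (1.18 to 3.66). Of the mTORC1 and TSC genes 1 of 9 was higher at 7d, the mTOR inhibitor Deptor (2.99; 1.76 to 4.93), and 0 of 10 passed at 1d.

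The AMPK, autophagy and peroxiredoxin lists had at most 1 member past 2-fold in either direction, against 17.7% higher and 12.6% lower of all pool genes at 7d, so their counts are near that background. Of 9 AMPK genes 1 was at least 2-fold higher at 7d, Strada, a partner of the kinase LKB1 (3.398; 1.36 to 7.81), and 1 lower. At 1d 1 of 9 was lower, Prkaa2, a catalytic subunit (3 UMIs in 1d and 24 in Ctrl). Of 9 autophagy genes, 1 was at least 2-fold lower at 7d, the receptor Sqstm1, which is also an NRF2 target (0.329), and 0 passed at 1d. Of 7 genes of the peroxiredoxin list, which also holds Srxn1, 1 was at least 2-fold lower at 7d, Srxn1 itself, and 0 passed at 1d, with medians of 0.03 and -0.07 on the log2 scale.

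**Figure D5:**
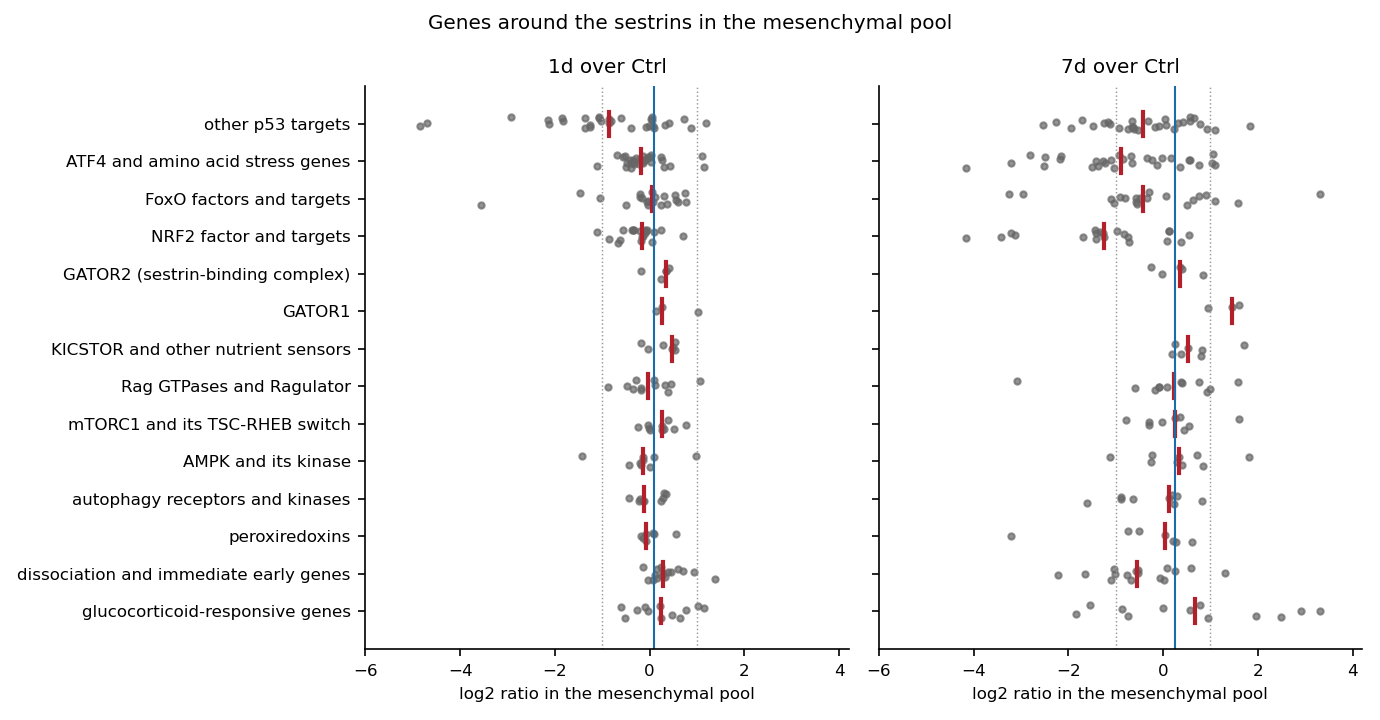
Log2 ratio over Ctrl in the mesenchymal pool of each member (grey point, at least 20 UMIs over both libraries, pseudocount of 0.5 UMI) of 14 lists of genes around the sestrins, at 7d and 1d, with the list median in red, the median of all genes in blue and dotted lines at a 2-fold difference. At 7d the medians of the NRF2 list (-1.26) and the ATF4 list (-0.89) lie lowest, and the GATOR2 genes stay between the dotted lines.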

How the data were processed

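Single-cell RNA of jaw cells was counted in 3 libraries, Ctrl, 1d and 7d, each from 8 joined mice, per the labels' protocols. The deposited values are counts of UMIs per gene and barcode, per the file headers, which name Cell Ranger 6.1.1. CASAVA 1.8, Cell Ranger, Seurat and build mm10 are named in the submitters' processing notes. How cells were called, and which annotation release was used, is not given in the sources used here. Labels name a 10x Genomics 3′ kit in more than one version. The genes, the lists, the markers and the naming rules were chosen with earlier results of these data known, and the members of a list support nothing by their choice.

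Cells were kept with at least 500 UMIs, 250 genes and at most 15% mitochondrial UMIs. The filter removed 2435, 916 and 1247 barcodes of Ctrl, 1d and 7d, of which 2349, 756 and 1094 held mostly haemoglobin UMIs. Doublets were called with Scrublet in scanpy: 257 by its own threshold in Ctrl (2.89%), and 248 (4.84%) in 1d and 403 (6.20%) in 7d by score at a rate of 0.8% per 1000 barcodes, where that threshold called under 0.5%. Over all deposited barcodes, the libraries shared 20 (1d and Ctrl), 24 (7d and Ctrl) and 12 (7d and 1d). Kept cells held 35960821, 39758246 and 39854533 UMIs. Counts scaled to 10000 per cell and logged were reduced to 2000 variable genes and 30 principal components, and Leiden clusters were drawn at resolution 1 from 15 neighbours, with no correction between libraries (Python 3.11.15, scanpy 1.11.5, leidenalg 0.10.2, scikit-learn 1.9.0). Naming a cluster took at least 3 markers of 1 of 30 classes at a log2 of at least 1 against other cells. These markers had to be found in at least 10% of its cells, and its leading genes not to go against the name. In Ctrl, 1d and 7d, 1855, 168 and 340 cells stayed unnamed. Of these, 1346, 106 and 81 lay in the cluster led by Il1rn, Wfdc17 and Lsmem1, nearest to granulocyte markers. The mesenchymal pool also took unnamed clusters nearest to mesenchymal markers by a log2 margin of at least 1, and was clustered again at resolution 0.5.

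UMIs were summed per class and library and scaled to 1000000. Levels have exact Poisson, ratios conditional binomial and shares exact binomial (Clopper-Pearson) 95% intervals, which cover counting error only; a count of 0 allows up to 3 counts. No test between groups was run. A ratio of at least 2 or at most 0.5 with at least 20 UMIs over both libraries counts as past 2-fold. Named genes were the sestrins, the 5 genes most like each (at least 500 UMIs over kept cells), up to 2 members per list, direction and contrast furthest from 1 by the nearer end of the interval, and 7 regulators (Trp53, Mdm2, Cdkn1a, Atf4, Foxo1, Foxo3 and Nfe2l2). The GATOR2 members were all given. TMM factors came from edgeR 4.0.16 in R 4.3.3. The scripts were tested on simulated data. Alternatives were no cell filter, a stricter one (1000 UMIs, 500 genes, 10% mitochondrial UMIs), keeping doublets, resolution 0.5 and 2, clustering without the sestrins and listed genes, TMM factors, a total without abundant genes, thinned cells, equal weight per cell, the richest cell left out, 5% free RNA subtracted, the Ctrl cluster mix, a single cluster, and list members with at least 5 or 100 UMIs.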

Additional observations from a re-analysis of the deposited data

Results flagged for a closer look

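Sesn3 had ratios on opposite sides of 1 in different classes, with intervals that did not hold 1, and these differences between classes were not tested. For 1d over Ctrl the Sesn3 ratio was 1.22 in the mesenchymal pool (1.09 to 1.36) and 0.772 in mature B cells (0.599 to 0.984). For 7d over Ctrl it was 2.02 in neutrophils and 4.11 in neutrophil precursors, and 0.788 in the mesenchymal pool, 0.795 in T cells and 0.690 in regulatory T cells. The neutrophil values rest on 14 UMIs in 7d and 40 in Ctrl, and those of the precursors on 66 and 3. The neutrophil ratio went below 1 under 2 other clusterings, and the pool ratio above 1 when the cluster mix was set to that of Ctrl.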

How the results depend on the processing

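Of the 6 sestrin ratios of the mesenchymal pool, 75 of 90 values under 15 alternatives (1 of them chosen after seeing the data) stayed within the counting interval, and neither ratio past 2-fold, Sesn1 and Sesn2 at 7d, changed direction. Sesn2 stayed below 1 under all 15 alternatives, at 0.139 to 0.286 for 7d over Ctrl and 0.415 to 0.774 for 1d over Ctrl, and Sesn1 at 7d above 1, at 1.70 to 5.17. Inside the Ptn-led cluster the 1d over Ctrl ratio was 0.744 for Sesn1, 0.415 for Sesn2 and 0.887 for Sesn3, and inside the Postn-led cluster the 7d over Ctrl ratio of Sesn1 was 1.70. With pool clusters of under 10 cells in any library left out, the alternative chosen after seeing the data, the 7d over Ctrl ratios were 2.29 for Sesn1, 0.286 for Sesn2 and 1.52 for Sesn3, and the 1d over Ctrl ratios 0.774 for Sesn2 and 1.59 for Sesn3. With the cluster mix set to that of Ctrl, Sesn3 was at 1.04 at 1d and 1.16 at 7d. At resolution 2, which kept 376, 101 and 61 cells of Ctrl, 1d and 7d in the pool, Sesn2 was at 0.485 and Sesn3 at 1.62 at 1d. Thinned cells gave 0.612 for Sesn1 at 1d, and TMM factors 0.619 for Sesn3 at 7d. The sides of 1 of Sesn1 at 1d and of Sesn3 at 1d and 7d therefore depend on these settings; the cause was not tested.

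Over 80 ratios in other classes, 883 of 933 alternative values did not move beyond the interval and 43 moved. Of the ratios past 2-fold, 7 values crossed 1, all 7 of them Sesn3 in myeloid classes; ratios within 2-fold crossed 1 too, such as Sesn1 in neutrophil precursors at 7d (0.213 with thinned cells). These were monocytes with no cell filter (0.913, 1d over Ctrl), neutrophil precursors at resolution 2 (0.774) and clustered without the listed genes (0.680, both 1d over Ctrl), and neutrophils under the same settings at 0.472 and 0.732 (7d over 1d) and 0.416 and 0.570 (7d over Ctrl). Of 108 list counts under alternatives, 81 were within 1.5 times the count given and 27 moved. No paired analysis was possible because each group has 1 library. Depth limits the 7d pool, with 37 UMIs of Sesn1 and 23 of Sesn2.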
